A study of Homo sapiens with 6 samples.

Results

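A set of 9 kidney lineage factors was followed in 786-O cells, a human line derived from a clear cell renal carcinoma: PAX2, PAX8, LHX1, WT1, SIX2, SIX4, SALL1, OSR1 and EYA1. They were taken by gene symbol, each matching 1 row, from a deposited table of 58395 genes. RNA-seq covered 3 libraries labelled sgControl and 3 labelled sgPLOD2, the latter from cells whose PLOD2 gene had been ablated with CRISPR/Cas9; all were grown in RPMI-1640 with 10% fetal bovine serum and carry the line's known loss of VHL. PLOD2 encodes a lysyl hydroxylase that modifies collagen, and the series' title places the work in a search for therapies that make sarcomatoid renal carcinoma differentiate. The labels do not say whether either group was a pool or a clone, or whether replicates were separate cultures. The replicate spread behind each p-value may therefore be technical. Differences between the groups that arose by other means than PLOD2 ablation cannot be told apart from its effects.

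The mammalian kidney arises from intermediate mesoderm, marked by the zinc finger gene OSR1 and the paired box genes PAX2 and PAX8. In the mesenchyme that caps the ureteric bud, SIX2 keeps nephron progenitors self-renewing, the zinc finger proteins SALL1 and WT1 act with it, and the coactivator and phosphatase EYA1 binds the product of SIX2. As the progenitors turn epithelial, SIX2 is lost, the LIM homeobox gene LHX1 comes on in the renal vesicle, and WT1 becomes restricted to the future podocytes. Clear cell renal carcinoma commonly keeps PAX8 and PAX2, and PAX8 is used to recognise its origin.

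Expression was given as FPKM, which scales fragments by gene length and by library size, so levels can be set side by side between genes. LHX1 and SALL1 rose in sgPLOD2, 3.94-fold and 2.27-fold in mean FPKM. PAX2 and WT1 were called lower, to 68.2% and 76% of the sgControl mean, in calls that several alternatives ended. PAX8 remained the most abundant member in every library and was not called. SIX4, too low for the filter, stood 3.2-fold higher, OSR1 was close to 0 and SIX2 and EYA1 were listed at 0 in all 6 libraries.

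Of the 9 genes, 5 had a mean of at least 1 FPKM over the 6 libraries and were tested with limma on log2(FPKM + 1), each with at least 1 FPKM in both groups. Of these 5, 2 were called higher and 2 lower at an adjusted p under 0.05. Over all 10469 genes tested, 29.5% were called higher and 23.5% lower, 52.9% in all, so a call by itself was common in this comparison. Of the calls made, 3084 were higher and 2456 lower, against 3673 and 1827 on the TPM scale, where each library is set to the same total. The excess of higher calls was absent with median-of-ratios scaling (2735 higher, 2741 lower), quantile normalization (2722 and 2738) and chromosome medians removed (2398 and 2545). The median log2 fold change was -0.19 for the 5 members and 0.06 for all genes tested. Among the 7 members with any value above 0, the libraries of both groups did not overlap for 6, with LHX1, SALL1, SIX4 and OSR1 higher and PAX2 and WT1 lower in sgPLOD2. Of the 28706 genes with any value above 0, 22.5% did not overlap with sgPLOD2 higher and 16.3% with sgPLOD2 lower, 38.8% in all; among the 10469 tested genes these shares were 34.7%, 28% and 62.7%. In bulk RNA, fewer cells that express a gene and less RNA per cell cannot be told apart.

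**Figure D1:**
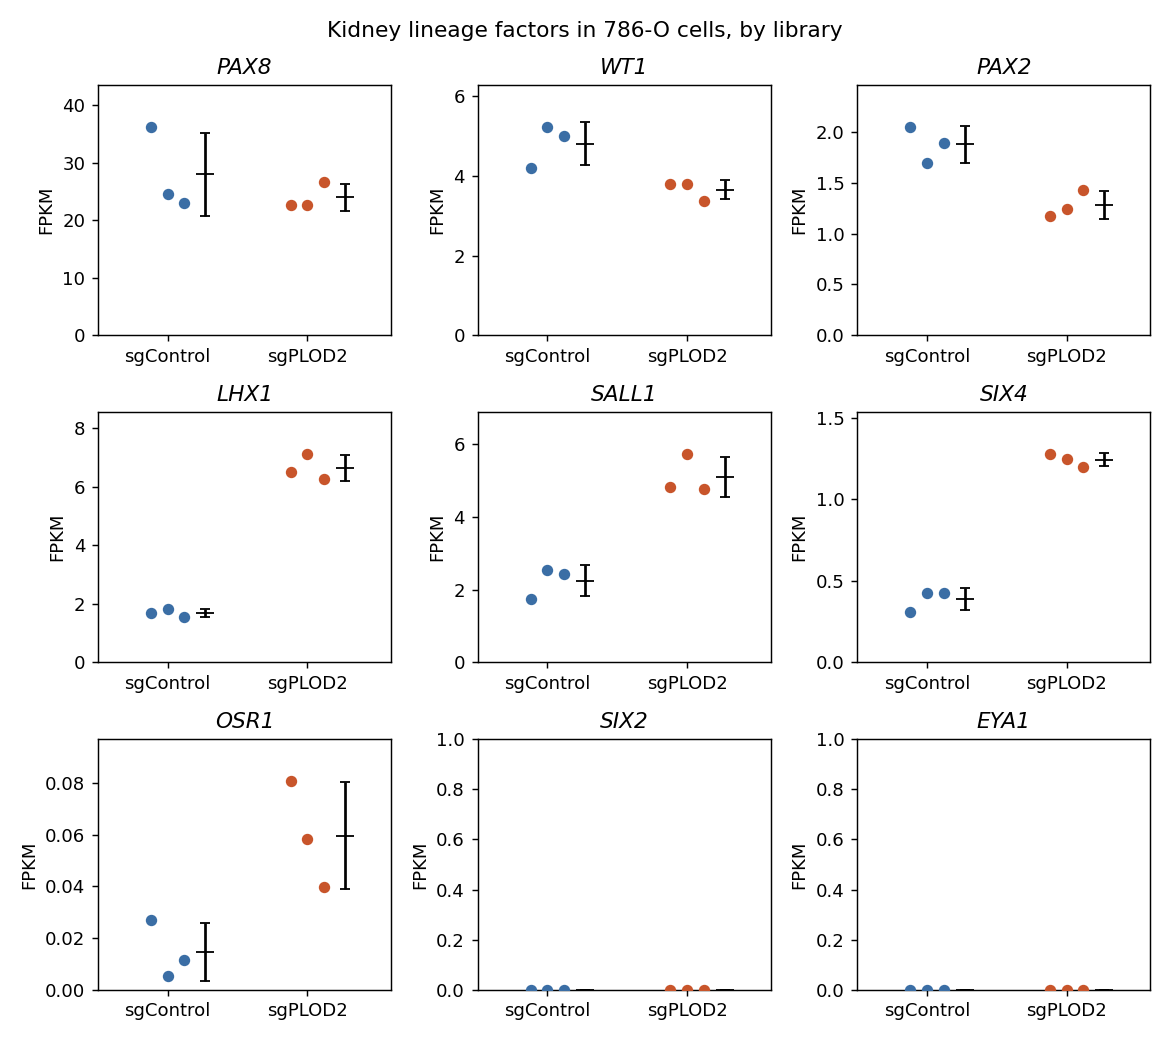
FPKM of the 9 members in each library (points; 3 sgControl in blue, 3 sgPLOD2 in orange), each on its own linear axis from 0, with the group mean ± SD (n = 3) in black. LHX1, SALL1, SIX4 and OSR1 were higher in every sgPLOD2 library than in any sgControl library, PAX2 and WT1 lower, PAX8 overlapped, and SIX2 and EYA1 were listed at 0.

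RNA of the targeted gene was lower in sgPLOD2, at 30.7% of the sgControl mean, which does not measure how complete the ablation was. PLOD2 was at 26.8, 25.7 and 21.5 FPKM in sgControl replicates 1 to 3 but at 5.98, 10.1 and 6.64 FPKM in those of sgPLOD2. The FPKM totals were 229485 to 268612 per library. The mitochondrial genome gave 12.9% of all FPKM in sgControl replicate 1, against 6.01% to 7.5% elsewhere. Leaving that library out turned the sign of PAX8, as given with its values. Of 10 markers of renal carcinoma lines, 8 had a mean of at least 1 FPKM. Of these, 1 was called higher (EPAS1) and 4 lower (CA12, CD70, ANGPTL4 and VIM, the last at a limma adjusted p of 0.0473). Over all genes tested, 29.5% were called higher and 23.5% lower. Under the filter, CA9 was listed at 0 in every sgControl library but had 0.317, 0.368 and 0.285 FPKM in sgPLOD2 (limma adjusted p = 0.000627 with no filter). NDUFA4L2, also under the filter, went from 0.17 to 0.0545 FPKM on average (0.0287). Summed over 12 markers of the loop, distal tubule and collecting duct, FPKM was 0.294 to 0.41 in sgControl and 0.279 to 0.32 in sgPLOD2, with UMOD, CALB1 and AQP2 listed at 0. The sum over 8 stromal and mesangial markers was 0.263 to 0.509 and 0.314 to 0.463 FPKM, with DCN listed at 0, and that over 6 endothelial markers was 0.029 to 0.0447 and 0.0911 to 0.161 FPKM, with VWF listed at 0. The 6 leukocyte markers summed to 12.1 to 18.9 and 7.79 to 8.68 FPKM. Of these, CD68 gave 15.8 FPKM on average in sgControl and 5.86 FPKM in sgPLOD2 and was called lower, while CSF1R had 0.567 and 2.13 FPKM and passed the filter only through sgPLOD2. CD3E and MS4A1 were listed at 0, and the pan-leukocyte gene PTPRC was above 0 in 1 library, at 0.00628 FPKM.

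PAX8 (ENSG00000125618; GRCh38, chromosome 2, 113215997 to 113278921, minus strand) encodes the paired box factor of renal and thyroid lineages. Its level was 36.3, 24.6 and 23.1 FPKM in sgControl replicates 1 to 3 and 22.6, 22.7 and 26.7 FPKM in sgPLOD2. A single sgControl library, the one with the large mitochondrial share, lay above all others, and the remaining 5 lay together. The means were 28 ± 7.27 and 24 ± 2.35 FPKM (SD, n = 3 each). The log2 fold change was -0.19 ± 0.17 (SE), with a 95% interval from -0.60 to 0.22 and a limma adjusted p of 0.387. Without sgControl replicate 1 the difference was 0.01 (adjusted p = 0.951). The authors' deposited table gave PAX8 a log2 fold change of -0.31 ± 0.20 (SE) and an adjusted p of 0.249. PAX8 made up 67.1% to 78.4% of the FPKM summed over the 9 members in sgControl and 54.2% to 61.0% in sgPLOD2.

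PAX2 (ENSG00000075891; chromosome 10, 100735603 to 100829944, plus strand), its paralog, was at 2.05, 1.69 and 1.89 FPKM in the sgControl libraries, against 1.17, 1.24 and 1.43 FPKM in sgPLOD2. Every sgPLOD2 library lay below every sgControl library. The log2 fold change was -0.33 ± 0.09 (SE), with a 95% interval from -0.55 to -0.12 and a limma adjusted p of 0.0191. The call was lost without sgControl replicate 3 (adjusted p = 0.0533), sgPLOD2 replicate 1 (0.0670) or sgPLOD2 replicate 2 (0.0650), and with the trend on GC content and length removed (-0.07, adjusted p = 0.579). On the TPM scale the adjusted p was 0.0538. In the authors' deposited table PAX2 had a log2 fold change of -0.64 ± 0.18 (SE) and an adjusted p of 0.00118. The 1 added to FPKM here shrinks log2 fold changes of genes at low levels, so the authors' values are on an unlike scale. With a pseudocount of 0.1 PAX2 had -0.52.

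WT1 (ENSG00000184937; chromosome 11, 32387775 to 32435564, minus strand) encodes a zinc finger factor needed for the mesenchyme to survive and later for podocytes. It stood at 4.2, 5.24 and 5.01 FPKM in the sgControl libraries, against 3.81, 3.79 and 3.38 FPKM in sgPLOD2. The groups did not overlap, but sgControl replicate 1 lay close to the upper sgPLOD2 libraries. The log2 fold change was -0.32 ± 0.10 (SE; 95% interval -0.56 to -0.08), with a limma adjusted p of 0.0353. This call was lost without sgControl replicate 2 or 3, or without any 1 of the sgPLOD2 libraries (limma adjusted p = 0.0722 to 0.111). The log2 fold changes there were -0.34 to -0.26. Such fits hold fewer libraries, so a lost call need not mean a smaller difference. It was also lost on the TPM scale (-0.25, adjusted p = 0.174), with no filter (-0.32, 0.0586) and with the trend on GC content and length removed (-0.26, 0.0808), at log2 fold changes of the same sign. Without sgControl replicate 1 the adjusted p was 0.00919, with a log2 fold change of -0.40. The authors' deposited table called WT1 lower, at -0.49 ± 0.16 (SE) and an adjusted p of 0.00653.

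LHX1 (ENSG00000273706; chromosome 17, 36936785 to 36944612, plus strand) encodes a LIM homeobox factor of the nephric duct and renal vesicle. Its level was 1.69, 1.82 and 1.54 FPKM in the sgControl libraries, against 6.50, 7.12 and 6.27 FPKM in sgPLOD2. The lowest sgPLOD2 library exceeded the highest sgControl library by far more than the spread within either group. The means were 1.68 ± 0.142 and 6.63 ± 0.437 FPKM (SD, n = 3 each). The log2 fold change was 1.51 ± 0.09 (SE; 95% interval 1.29 to 1.72), with a limma adjusted p of 2.91e-05, and LHX1 stayed called in all 18 alternatives in which it had a value, at 1.36 to 1.96. The exact permutation test gave p = 0.1, 2-sided, the smallest that 3 libraries against 3 allow, as for every member whose groups did not overlap. The authors' deposited table gave 1.88 ± 0.14 (SE) and an adjusted p of 7.45e-38 for LHX1.

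SALL1 (ENSG00000103449; chromosome 16, 51135975 to 51151367, minus strand) encodes a zinc finger repressor of nephron progenitors that recruits the NuRD complex. It was measured at 1.76, 2.55 and 2.43 FPKM in the sgControl libraries, against 4.82, 5.74 and 4.76 FPKM in sgPLOD2. sgControl replicate 1 was the lowest of its group, and no library of either group came near the other. The log2 fold change was 0.92 ± 0.13 (SE; 95% interval 0.62 to 1.22), with a limma adjusted p of 0.00116. SALL1 stayed called in all 18 alternatives, between 0.71 and 1.23. In the authors' deposited table its log2 fold change was 1.09 ± 0.19 (SE), with an adjusted p of 1.62e-07.

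**Figure D2:**
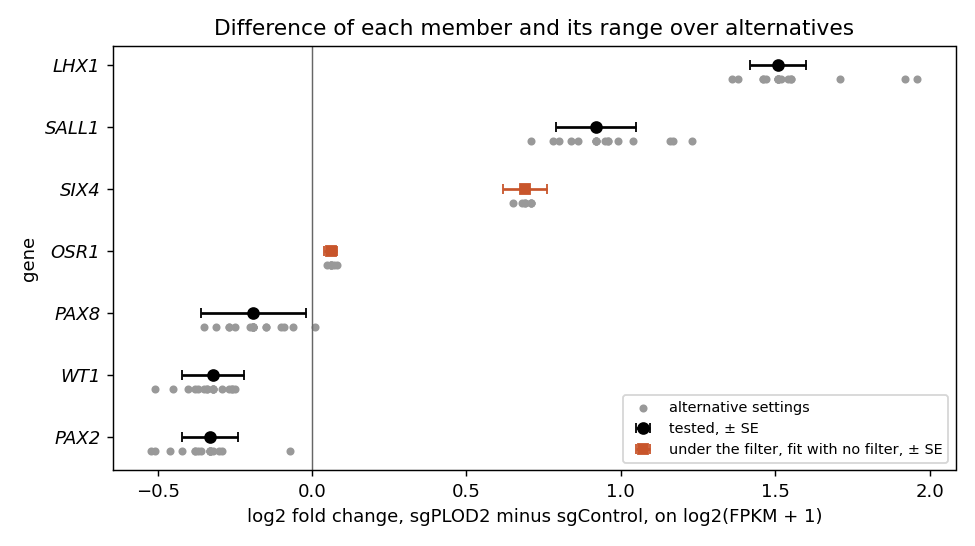
Log2 fold change of each member with a value (x axis, sgPLOD2 minus sgControl on log2(FPKM + 1)) with its SE; squares mark SIX4 and OSR1, which were under the filter and are drawn from the fit with no filter. Grey points are the alternatives other than the authors' comparison. LHX1 and SALL1 stayed well above 0, at or above 1.36 and 0.71, while the values of PAX2 came as close to 0 as -0.07 and those of PAX8 reached 0.01.

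SIX4 (ENSG00000100625; chromosome 14, 60709539 to 60724351, minus strand) encodes a homeobox factor. Its sgControl libraries lay at 0.31, 0.428 and 0.429 FPKM, against 1.28, 1.25 and 1.2 FPKM in sgPLOD2. The sgPLOD2 libraries were tightly grouped and all above sgControl. SIX4 missed the filter of 1 FPKM on the mean, and its exact permutation test gave p = 0.1, 2-sided, the smallest possible. With no filter, limma gave a log2 fold change of 0.69 ± 0.07 (SE) and an adjusted p of 0.00228, in a fit that called 24.3% of 28706 genes, 14.2% higher and 10.1% lower. The scale of log2(FPKM + 1) understates the change of so low a gene. The authors' deposited table gave a mean normalized count of 730 reads, a log2 fold change of 1.58 ± 0.20 (SE) and an adjusted p of 6.2e-14.

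OSR1 (ENSG00000143867; chromosome 2, 19351485 to 19358623, minus strand), the zinc finger gene of early intermediate mesoderm, lay at 0.0269, 0.0054 and 0.0113 FPKM in the sgControl libraries, against 0.0807, 0.0584 and 0.0397 FPKM in sgPLOD2. The groups did not overlap, but all values were close to 0. With no filter the limma adjusted p was 0.0513. The authors' deposited table gave OSR1 a mean normalized count of 26.8 reads, against 1355 to 26282 for the 5 tested members, a log2 fold change of 1.92 ± 0.76 (SE) and an adjusted p of 0.0338. By that table's rule 4 members were higher and 2 lower, against 18.5% higher and 17% lower, 35.5% in all, of the 22870 genes it gave an adjusted p. SIX2 (chromosome 2, 45005182 to 45009452) and EYA1 (chromosome 8, 71197433 to 71592025), which mark and maintain the uncommitted progenitor state, were listed at 0 in each of the 6 libraries and in the table's mean count. Depth per library is unknown, so no upper limit is given for them.

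The order of levels changed between the groups. In sgControl it ran PAX8, WT1, SALL1, PAX2, LHX1, SIX4, OSR1. SALL1, PAX2 and LHX1 were not separated there, since their libraries, at 1.76 to 2.55, 1.69 to 2.05 and 1.54 to 1.82 FPKM, overlapped. Within each sgControl library, SALL1 was above LHX1. In sgPLOD2 the order was PAX8, LHX1, SALL1, WT1, PAX2, SIX4, OSR1. LHX1 now lay above SALL1 and SALL1 above WT1 with no overlap of their libraries, whereas PAX2 at 1.17 to 1.43 FPKM and SIX4 at 1.2 to 1.28 FPKM overlapped.

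The RefSeq promoter table (GRCh38.p14) held 9 windows for 5 members, PAX2, PAX8, WT1, SIX2 and SIX4. The 250 bases before the start are shown for the most abundant member, for a member higher in sgPLOD2 and for a member listed at 0, so that their sequence can be read beside their levels. Capitals mark the CCAAT box, searched as CCAAT and, on the other strand, ATTGG.
SIX4, chr14:60724352-60724601, minus strand: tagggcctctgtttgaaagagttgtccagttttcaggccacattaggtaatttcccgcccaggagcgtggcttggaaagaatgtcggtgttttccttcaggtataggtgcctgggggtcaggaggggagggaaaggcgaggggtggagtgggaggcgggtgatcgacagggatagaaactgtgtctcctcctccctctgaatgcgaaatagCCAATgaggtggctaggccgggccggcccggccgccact
PAX8, chr2:113278922-113279171, minus strand: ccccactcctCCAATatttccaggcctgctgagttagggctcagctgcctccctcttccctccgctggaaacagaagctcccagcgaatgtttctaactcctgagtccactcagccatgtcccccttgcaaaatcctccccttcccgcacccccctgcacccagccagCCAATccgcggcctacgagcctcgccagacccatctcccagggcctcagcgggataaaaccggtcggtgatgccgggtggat
SIX2, chr2:45009453-45009702, minus strand: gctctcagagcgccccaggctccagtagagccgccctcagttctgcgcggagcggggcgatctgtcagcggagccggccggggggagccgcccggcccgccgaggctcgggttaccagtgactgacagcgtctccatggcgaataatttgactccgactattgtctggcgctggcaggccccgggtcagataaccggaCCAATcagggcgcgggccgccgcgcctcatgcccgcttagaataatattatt
The first base of CCAAT lay 39 bases before the start in SIX4 and 52 in SIX2, and PAX8 held 2 matches. These were 3 of the 9 windows, against 32% of all 35116 windows in that table, so windows with the box are common. The ACGTG form of the core of the hypoxia response element, searched as ACGTG and CACGT, was in 2 of the 9 windows, 1 each of PAX2 and WT1. It was in 18.5% of all windows. The WT1 match lay in the window at 32400401 to 32400650, before a start inside the gene. The window before the outermost WT1 start, 32435540 to 32435789, held no match. Other forms of the core, such as GCGTG, were not searched. A match describes the letters of a window and does not show that a factor binds there.

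Transcripts that overlap a member did not all go with it. The strand setting of the counting is not given in the sources used here, so reads of a member and of an antisense transcript over it cannot be told apart. AC243773.1, antisense within LHX1, had 0.0841 ± 0.0728 and 0.509 ± 0.0369 FPKM (SD, n = 3 each; adjusted p = 0.00362 with no filter), higher like LHX1. WT1-AS, which overlaps the start of WT1, had 0.548 ± 0.037 and 0.328 ± 0.0357 FPKM (0.0304), lower like WT1. PAX8-AS1 had 0.0851 ± 0.0287 and 0.230 ± 0.0504 FPKM (0.0219), higher while PAX8 was not called. AC009166.1 over SALL1 had 0.841 ± 0.0422 and 0.646 ± 0.0403 FPKM (0.156), with no overlap between the groups and sgPLOD2 below, opposite to SALL1. AC087564.1 at SALL1 was near 0.05 FPKM in both groups, and both transcripts over EYA1, AC022858.1 and TRAPPC2P2, were at or near 0.

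Genes were taken as neighbours when they lay within 1 Mb of a member's ends, and the nearest called ones are named. The counts stand beside 29.5% called higher and 23.5% lower over all genes tested. SIX4 lies on chromosome 14, where 234 of 344 tested genes were called higher and 23 lower in sgPLOD2, with a median fold in mean FPKM of 1.59. Of the 8 tested genes within 1 Mb of SIX4, 7 were called higher and 0 lower, including the cyclin-dependent kinase assembly gene MNAT1 (0.63) and TRMT5 (0.90). HIF1A, named after its values were seen, had the largest log2 fold change of the 8, 4.77. The part of the chromosome in the SIX4 difference was not tested, since SIX4 was under the filter of that fit.

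On chromosome 17 the divergent transcript LHX1-DT, which starts 0.1 kb from LHX1, rose by 0.98 on the log2 scale (limma adjusted p = 0.00119). Of the 14 tested genes within 1 Mb of LHX1, 6 were called higher and 2 lower. AATF and ACACA rose by 0.38 and 1.01, and MRM1 fell by 0.36.

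Around SALL1, none of the 4 tested genes within 1 Mb was called, and on chromosome 16 more genes were called lower (225 of 507) than higher (65). With chromosome medians removed its log2 fold change was 1.17 instead of 0.92. WT1 was lower where 6 of 9 tested neighbours were called higher and 0 lower, EIF3M and QSER1 among them (0.38 and 1.06). On its chromosome 11, 242 of 617 tested genes were called higher and 88 lower. With chromosome medians removed WT1 had -0.51 (limma adjusted p = 0.00636). Of 22 tested genes near PAX2, 6 were higher and 5 lower, with SLF2 rising by 0.74. Of 11 near PAX8, 5 were higher, SLC20A1 (0.67) and CBWD2 (0.27) among them, and 1 lower. Near OSR1, 4 of 7 were higher, among them WDR35 and MATN3 (0.53 and 0.78), and 2 lower, KCNS3 being 1 of them (-0.83). Near SIX2, PREPL and SRBD1 (0.62 and 0.64) were higher of 3 tested. Near EYA1, 2 of 5 were higher, among them the basic helix-loop-helix gene MSC at 1.00, and 2 lower, TRAM1 and LACTB2 (-0.41 and -0.48).

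**Figure D3:**
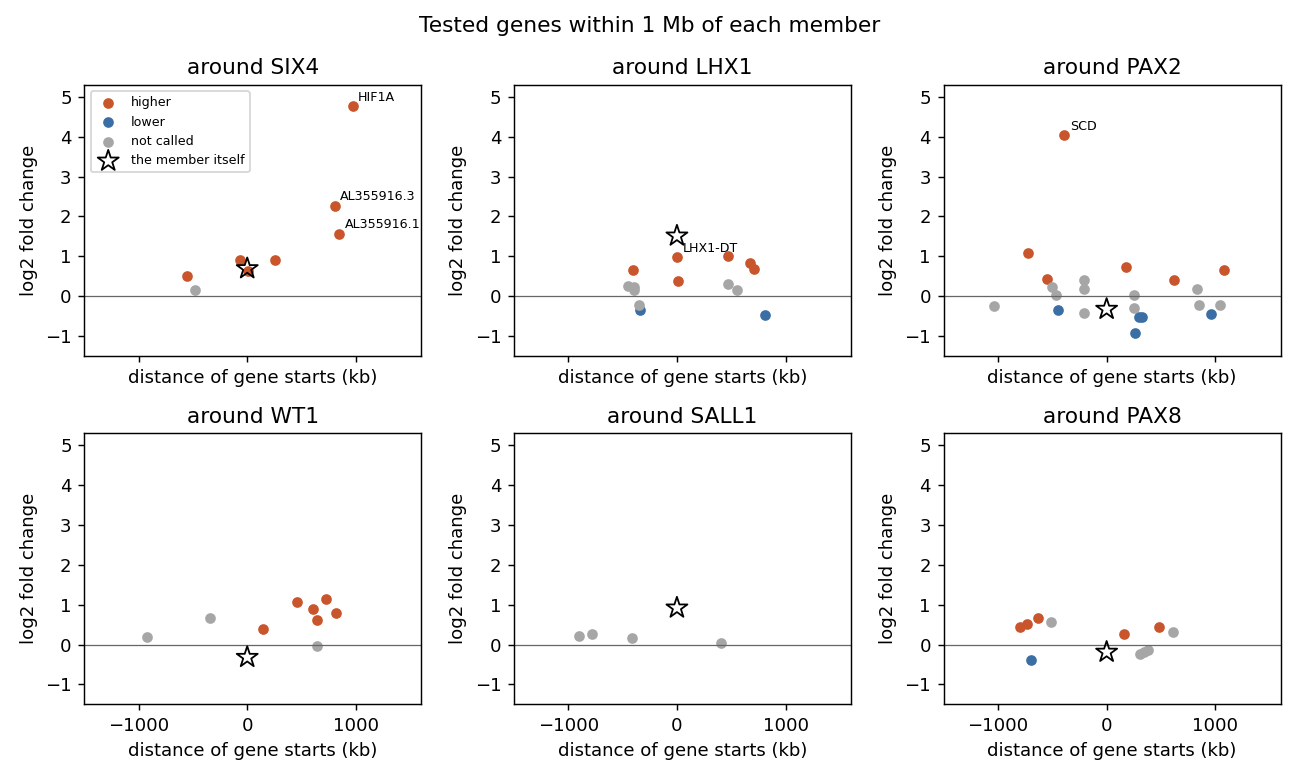
Log2 fold change (y axis, sgPLOD2 minus sgControl) of tested genes within 1 Mb of 6 members, by the distance between gene starts (x axis, kb); the star is the member, which for SIX4 comes from the fit with no filter. Orange genes were called higher, blue lower, grey not called. Genes around SIX4 were mostly higher, up to HIF1A at 4.77, and SALL1 stands above uncalled neighbours.

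Few paralogs passed the filter. Of 29 relatives of the members (among them other PAX, EYA, SALL, LHX and OSR genes, and the EGR genes, whose zinc fingers resemble those of WT1), 4 were tested, 1 was called higher, 1 lower, and 12 were listed at 0. Calls over all genes tested were 29.5% higher and 23.5% lower. SIX5 had 4.80 ± 0.519 and 3.48 ± 0.628 FPKM (SD, n = 3 each), with a limma adjusted p of 0.0434 that 9 alternatives ended, 4 of them leaving out a library (sgControl replicate 1 or 2, sgPLOD2 replicate 1 or 2; 0.0881 to 0.135), and its sign turned without the GC and length trend (0.16). EYA3, the EYA gene with the highest level here, had 4.42 ± 0.585 and 4.85 ± 0.20 FPKM and was not called (adjusted p = 0.383). EGR1 was not called at 1.24 ± 0.171 and 2.22 ± 0.828 FPKM (adjusted p = 0.0721), but its adjusted p was 0.00470 without sgPLOD2 replicate 2, 0.0386 with the trend on GC content and length taken out and 0.0476 on the TPM scale. In the authors' deposited table it was 0.0383.

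Of 25 partners and cofactors, 18 were tested, 8 were called higher and 3 lower, with a median log2 fold change of 0.24, against 0.06 over all genes tested, of which 29.5% were higher and 23.5% lower. With chromosome medians removed, 5 partners were called higher and 5 lower, and with the trend on GC content and length taken out 5 and 2. The 3 lower genes were TLE1, SSBP4 (-0.50) and BASP1 (-0.35), the last 2 named after their values were seen. The corepressor gene TLE1, from the Groucho family, which PAX2 can recruit, fell from 25.8 ± 3.78 to 11.3 ± 0.275 FPKM (SD, n = 3 each), by 1.11 on the log2 scale (limma adjusted p = 0.000362). The family did not move together. TLE3 and TLE4, named after their values were seen, were called higher, by 0.38 and 0.32 (limma adjusted p = 0.0133 and 0.0277). HDAC2, a deacetylase of the NuRD complex, rose from 3.24 ± 0.212 to 5.70 ± 0.216 FPKM, but without the GC and length trend its adjusted p was 0.107. SSBP3, which stabilises LIM domain complexes such as those of LHX1, rose from 11.0 ± 0.674 to 16.0 ± 0.455 FPKM. HOXA11, whose product works with PAX2 and EYA1 at the GDNF gene, rose from 3.51 ± 0.208 to 5.17 ± 0.0911 FPKM.

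Among other transcription factors of kidney development, 9 of 38 were tested, 6 were called higher and 2 lower, with a median of 0.36, and 12 were listed at 0. The shares over all genes tested were 29.5% higher and 23.5% lower, with a median of 0.06. With quantile normalization 4 of the factors were called higher and 3 lower. Leaving out a library gave 4 to 6 higher and 2 to 3 lower. Among the 6 factors called higher, POU3F3, a POU factor of the distal nephron and loop of Henle, had 0.00309 ± 0.00268 FPKM in sgControl and 3.05 ± 0.222 FPKM in sgPLOD2 (SD, n = 3 each). It passed the filter only through sgPLOD2 and so had to differ, and its call and its place in the count support nothing. FOXC2, of podocyte precursors, rose from 2.64 ± 0.123 to 5.05 ± 0.32 FPKM and SOX4 from 6.73 ± 0.683 to 11.6 ± 1.68 FPKM. FOXD1, which marks stromal progenitors, fell from 13.7 ± 0.672 to 9.05 ± 0.478 FPKM, though without the GC and length trend the value was 0.03 (adjusted p = 0.774).

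Of 45 ligands, receptors and adhesion molecules of nephron induction, 15 were tested, 7 were called higher and 3 lower, with a median of 0.50. All genes tested gave 29.5% higher and 23.5% lower, with a median of 0.06. With the trend on GC content and length taken out, 4 of the 15 were higher and 5 lower. The ligand gene WNT7B, which the collecting duct uses to shape the medulla, rose from 7.44 ± 1.39 to 25 ± 1.79 FPKM (SD, n = 3 each), by 1.64 on the log2 scale (limma adjusted p = 0.000107). The Wnt receptor gene FZD8 fell from 11.9 ± 0.456 to 2.29 ± 0.30 FPKM (-1.97) and the retinoic acid carrier gene CRABP2 from 4.70 ± 1.07 to 1.64 ± 0.058 FPKM (-1.09). NOTCH1, named after its values were seen, was the other lower gene (-0.67). NOTCH2 and CTNNB1, named in the same way, were among the 7 called higher (0.87 and 1.12). The integrin gene ITGB1 rose from 108 ± 5.01 to 161 ± 14.9 FPKM. Also named after the values were seen, the receptor gene RET was listed at 0, and its coreceptor GFRA1 had 15.6 ± 1.2 and 16.0 ± 0.991 FPKM and was not called (adjusted p = 0.753).

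Of 21 genes known as targets of these factors, 9 were tested, 2 were called higher and 1 lower, with a median of 0.19. For all genes tested the shares were 29.5% and 23.5% and the median 0.06. PODXL, the podocyte sialoprotein gene that WT1 is known to activate, rose 7.9-fold, from 1.24 ± 0.253 to 9.80 ± 0.769 FPKM (SD, n = 3 each; limma adjusted p = 1.27e-05). The slit diaphragm gene NPHS1 was listed at 0. Of 9 podocyte markers, 2 were tested, PODXL and SYNPO. SYNPO had 58.7 ± 10.4 and 43.9 ± 4.02 FPKM, a log2 fold change of -0.40, and was not called. Summed over the 9 markers, FPKM was 48.3 to 69.0 in sgControl and 50.5 to 58.8 in sgPLOD2. AREG, another known target of WT1, rose from 3.31 ± 0.0589 to 4.74 ± 0.406 FPKM, but with quantile normalization or with chromosome medians removed its adjusted p was 0.0516 or 0.0957.

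**Figure D4:**
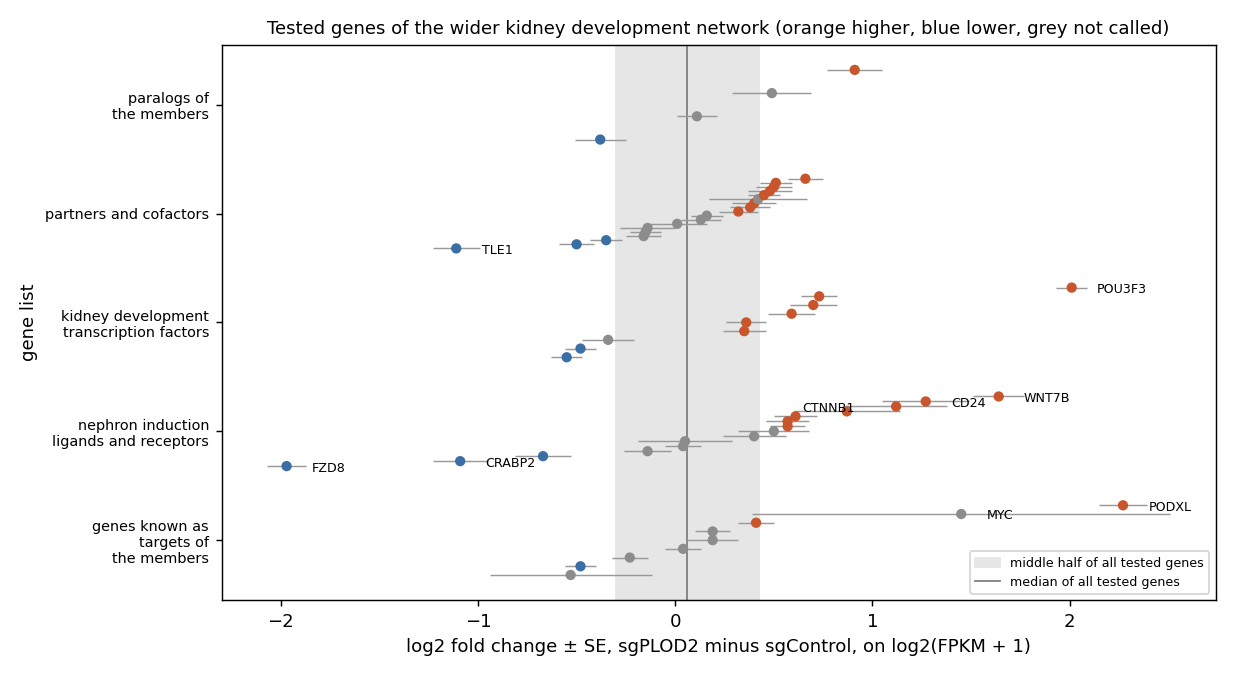
Log2 fold change ± SE (x axis) of the tested genes in 5 lists around the members (y axis, each gene a point); orange genes were called higher, blue lower, grey not called, and the grey band holds the values between the lower and upper quartiles of all 10469 tested genes. PODXL at 2.27 and POU3F3 at 2.01, which passed the filter only through sgPLOD2, lie farthest to the right and FZD8 at -1.97 farthest to the left.

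By Pearson correlation of log2(FPKM + 1) over the 6 libraries, a description over libraries that fall into 2 groups, the genes most like LHX1 were SUPT16H (r = 0.9997) and DCDC2 (r = 0.9994). DCDC2 had 2.75 and 12.4 FPKM on average. CCDC47 and CHSY3 were most like SALL1, PGP and SEPTIN9 most like PAX2, and ARGLU1 and TCFL5 most like WT1. For PAX8 they were the glutamine transporter gene SLC1A5 and YY1AP1.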

How the data were processed

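RNA-seq of 6 libraries was used, 3 per group. Per the file headers, the authors deposited 1 FPKM value per gene and library, with their own comparison: a mean normalized count (a signal averaged over libraries), its log2 fold change and error, a test statistic (score), and a p-value per gene. For that comparison, the counting and its strand setting, the tool is not given in the sources used here. Per the submitters' processing notes, which assign no roles, CASAVA, HISAT2 2.1.0, StringTie 1.3.4 and GRCh38 were used. Depth per library is unknown, so no counting intervals are given. GENCODE 29 held 58275 of the 58395 identifiers, 49009 with the same start.

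Values were tested on log2(FPKM + 1) by limma 3.58.1 in R 4.3.3 (eBayes with an intensity trend) for genes averaging 1 FPKM or more, 2-sided, with Benjamini-Hochberg adjustment over 10469 genes and a threshold of 0.05. Members under this filter were compared with an exact permutation test (scipy 1.17.1). The steps were tested on simulated data. Tried instead were no filter or a minimum of 5 FPKM, pseudocounts of 0.1 and 0.5, TPM, median-of-ratios scaling, quantile normalization, no trend, robust estimation, a replicate block, removal of chromosome medians or of a trend on GC content and length (mgcv 1.9.3), leaving out each library, and the authors' deposited comparison.

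The members and lists were chosen with earlier results of these data known. The genes named were PLOD2, the members, transcripts overlapping them, the 4 called genes with the smallest adjusted p of each list, paralogs with a mean of at least 1 FPKM, called genes among the nearest 2 tested on each side of a member, and the 2 genes most correlated with each called member and with PAX8. Some genes that this rule names are not reported here.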

Additional observations from a re-analysis of the deposited data

How the results depend on the processing

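LHX1 and SALL1 kept their direction and call in all 18 alternatives in which they had a value. The count of members called higher was 2 except for 0 at a minimum of 5 FPKM, where fewer genes are tested, 3 with no filter and 4 in the authors' deposited table. The 2 called lower became 0 without the GC and length trend, 0 on the TPM scale, 0 at a minimum of 5 FPKM and 1 with no filter, and 0 to 2 when a library was left out; the cause was not tested. Of the members under the filter, 0 passed the permutation test, which cannot go below 0.1, 1 was called with no filter and 2 in the authors' table. PAX8 ran from -0.31 to 0.01 when a library was left out, turning without sgControl replicate 1. Removing the GC and length trend turned SIX5 to 0.16, EYA3 to -0.20 and FOXD1 to 0.03. EYA3 also turned to -0.01 with quantile normalization. Of 483 values of the other 26 genes, 462 kept direction and side of the threshold.

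Without the GC and length trend, paralogs called higher and lower were 2 and 0, partners higher 5, kidney development factors lower 1, ligands and receptors 4 and 5, and targets lower 2. On the TPM scale paralogs were 2 and 0; TPM moved the median of all genes from 0.06 to 0.197. With chromosome medians removed paralogs were 0 and 0, partners 5 and 5, and targets higher 1. At a minimum of 5 FPKM paralogs were 0 and 0, partners higher 4, kidney development factors higher 2, targets higher 1, and all genes higher 1361. With no filter paralogs were 5 and 0, kidney development factors higher 10, ligands and receptors higher 12, and targets 4 and 2. Targets lower were 2 with median-of-ratios scaling and 2 with quantile normalization. In the authors' deposited table paralogs higher were 9, kidney development factors 10 and 4, ligands and receptors higher 13, targets 4 and 3, and all genes lower 3884. Leaving out a library gave 1 to 2 paralogs higher and 0 to 1 lower.

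Replicate numbers are shared between the groups, but deviations of same-numbered libraries correlated at 0.0135, 0.135 and -0.0491, and 2 of 6 libraries correlated best with their own number. With the replicate block, members called lower were 1 (WT1 had an adjusted p of 0.0596 and PAX2 0.0390), members called higher 2, and paralogs lower 0. Depth per library is unknown, which limits what can be said of SIX2 and EYA1.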

Other observations

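Some genes of the lists lay under the filter but stood well apart between the groups; they were chosen after their values were seen. GATA3, a factor of the nephric duct and collecting duct that PAX2 and PAX8 are known to activate, had 0.0110 ± 0.00959 FPKM in sgControl and 1.46 ± 0.22 FPKM in sgPLOD2 (SD, n = 3 each), with a limma adjusted p of 0.000529 in the fit with no filter. WTIP, a LIM protein known to bind WT1, had 0.0137 ± 0.00407 and 0.787 ± 0.0582 FPKM (0.000302). HOXC11 had 0.0133 ± 0.00744 and 0.384 ± 0.0155 FPKM (0.000256), and GDNF, the ligand of RET, had 0.0426 ± 0.0137 and 0.323 ± 0.0465 FPKM (0.00165). MEOX1, at 0 in all sgControl libraries, averaged 0.509 ± 0.0356 FPKM in sgPLOD2. CITED1, like SIX2 a gene of the uncommitted cap mesenchyme, had 0.0702 ± 0.0483 and 0.225 ± 0.0411 FPKM (0.0228). CDH16, the kidney-specific cadherin gene, went the other way, from 0.669 ± 0.0219 to 0.294 ± 0.0691 FPKM (0.00999). The fit with no filter called 14.2% of 28706 genes higher and 10.1% lower.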
